A study of Mus musculus with 20 samples.

Results

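RNA recovered from liver polysomes was compared between mice that received an LNA against SNORA73 and mice that received an LNA against GFP. The comparison used 10 of the 20 libraries of the series. These were the 5 polysome libraries of mice 4, 6, 10, 11 and 12 (SNORA73 LNA) and the 5 polysome libraries of mice 1, 2, 3, 8 and 9 (GFP LNA), chosen by their labels, and the other 10 libraries hold the total RNA of the same livers. All animals were male C57BL/6J mice on chow, and the GFP LNA group carries an LNA of the same design, so that injection and LNA chemistry are common to both groups. The LNAs were injected intraperitoneally at 3 mg/kg, 3 times on alternate days, and livers were taken 2 days after the last injection, following cycloheximide by tail vein. An age of 8 weeks is given for the chow study and 10 weeks for liver polysomes, and the sources do not say which holds for the livers sequenced here. The labels write the target as Snora37, and the 5 libraries so labelled were read as SNORA73 LNA, since GFP is the one other target in the study's mouse work.

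SNORA73 is a pair of box H/ACA small nucleolar RNAs, Snora73a and Snora73b, carried in introns of the noncoding host gene Snhg3. RNAs of this box class usually guide pseudouridylation, and SNORA73 is known for a part in ribosomal RNA processing. An mRNA with several ribosomes on it sediments deep in a sucrose gradient, and sequencing those fractions therefore weights each transcript by how much of it sits with polysomes. In liver this RNA is dominated by secreted plasma proteins and metabolic enzymes of the hepatocyte.

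The oligonucleotides define the groups and are shown here 5′ to 3′, with locked bases in capitals. Each has 20 bases, with 5 locked bases at each end. The 2 SNORA73 LNAs overlap by 11 bases (aagtcgtagga), which are positions 1 to 11 of LNA 1 and 10 to 20 of LNA 2. The labels do not say which of these 2 the sequenced mice received. The study names LNA 2 for its later liver experiments, although its account of the sequenced chow-fed mice says only SNORA73 LNA.
SNORA73 LNA 1: AAGTCgtaggaatatGCAGG
SNORA73 LNA 2: GACTCtgagaagtcgTAGGA
GFP LNA: TCACCttcaccctctCCACT

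The polysome libraries held 17751846 to 33824659 estimated counts in the GFP LNA group and 14852951 to 24905687 in the SNORA73 LNA group. Pairwise correlations of log2 CPM (counts scaled to a common library total) lay between 0.935 and 0.977. On average, SNORA73 LNA mice 4, 6, 10 and 12 correlated slightly more with the GFP LNA libraries than with their own group. The values were 0.968 against 0.964, 0.966 against 0.960, 0.956 against 0.955 and 0.959 against 0.955. Mouse 11 and every GFP LNA mouse correlated more with their own group. Counts on the targeted snoRNAs were near zero in these poly(A)-selected libraries, with 2 counts of Snora73a in GFP LNA mouse 1, 4 of Snora73b in each of GFP LNA mice 2 and 3, 1 of Snora73b in SNORA73 LNA mouse 12, and 0 in every other library, so knockdown could not be read from them. The host Snhg3 averaged 3.64 ± 0.62 CPM with GFP LNA and 3.76 ± 1.44 CPM with SNORA73 LNA (SD, n = 5; log2 fold change 0.05, edgeR unadjusted p = 0.842), and the neighbouring Rcc1 averaged 5.94 ± 0.639 and 5.17 ± 1.40 CPM (log2 fold change −0.20, unadjusted p = 0.335). The TMM scaling factor was 1.01 to 1.10 in GFP LNA libraries, 1.02 and 1.03 in SNORA73 LNA mice 4 and 6, and 0.881 to 0.920 in mice 10, 11 and 12. The median of all genes, on the log2 scale, was −0.01 under TMM and −0.17 under library totals alone. Medians of gene lists moved with it, and measured from the median of all genes they differed by −0.03 to 0.03 between both scalings, so that a sign that turns under library totals below reflects this common shift. Mouse 11 stood apart in nuclear RNA. The share of counts on Malat1, a long noncoding RNA retained in the nucleus, was 0.00950% to 0.0146% in the GFP LNA libraries, 0.0222% to 0.0442% in SNORA73 LNA mice 4, 6, 10 and 12, and 0.123% in mouse 11. Mouse 10 stood apart in acute phase mRNAs, described further on.

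Across 13060 genes tested in all 10 mice, 2 genes rose with SNORA73 LNA (0.0153% of those tested, log2 fold change of at least 0.5) and 0 fell (0%), both at an FDR under 0.05 with the edgeR quasi-likelihood test. Counting instead by an unadjusted p under 0.05 gave 1060 higher genes (8.12%) and 695 lower ones (5.32%). Under library totals, with the common shift given above, these were 469 higher and 1796 lower. Groups stood fully apart in 275 genes that were higher (2.11%) and 143 that were lower (1.09%). At an FDR under 0.1 the counts were 51 higher and 5 lower. DESeq2 called more, with 217 genes higher (1.85% of the 11724 given an adjusted p) and 50 lower (0.426%), whereas limma-voom called 2 and 0. The 2 edgeR calls became 0 without any one of GFP LNA mice 1, 2, 3 or 8 or SNORA73 LNA mouse 4, and became 15 without GFP LNA mouse 9. With so few genes past the threshold, the groups below are described by their values and by counts at an unadjusted p under 0.05, and these genes are not called changed. The shares of all genes given above are the background for each count of list members over 10 mice. Nothing in the labels says how the mice were housed or processed, and p-values measure the spread between these animals.

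Both genes that rose encode nuclear proteins that act on chromatin. Anp32b (ENSMUSG00000028333, chr4:46450926-46472657, GRCm38.p6) encodes an acidic leucine-rich histone chaperone. Its level was 129, 96.7, 106, 89.8 and 132 CPM in GFP LNA mice 1, 2, 3, 8 and 9, and 295, 250, 342, 685 and 339 CPM in SNORA73 LNA mice 4, 6, 10, 11 and 12. Every SNORA73 LNA mouse lay above every GFP LNA mouse, and mouse 11 lay far above the other four. The log2 fold change was 1.79 ± 0.25 (SE, edgeR adjusted p = 0.0437) over 10 mice and 1.49 without mouse 11, the lowest value on leaving out any mouse. In total RNA of the same livers it was 0.45.

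Smarce1 (ENSMUSG00000037935, chr11:99209047-99231017) encodes the HMG-box subunit of the SWI/SNF remodelling complex, which moves nucleosomes at promoters and enhancers. It was at 36.7, 31.1, 31.0, 26.8 and 29.1 CPM with GFP LNA and at 52.3, 57.3, 63.5, 79.2 and 63.5 CPM with SNORA73 LNA. The groups were well apart, and the lowest SNORA73 LNA mouse was above the highest GFP LNA mouse. The log2 fold change was 1.03 ± 0.14 (SE, edgeR adjusted p = 0.0437) and stayed between 0.95 and 1.10 when any mouse was left out. In total RNA it was 0.30.

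The genes next in rank included Anp32a, Anp32e, Set and Ptma, which encode histone-binding proteins like that of Anp32b and were put side by side after their values were seen. None passed the threshold over 10 mice, although Anp32a did so over 8. Anp32a (ENSMUSG00000032249), a paralogue of Anp32b that also inhibits phosphatase 2A, was at 214 to 282 CPM with GFP LNA and at 591, 588, 352, 1047 and 628 CPM in SNORA73 LNA mice 4, 6, 10, 11 and 12 (log2 fold change 1.40 ± 0.23 (SE), edgeR adjusted p = 0.0649). Anp32e, the family member that removes the histone variant H2A.Z, was at 24.2 to 38.5 CPM and 55.0 to 139 CPM (1.30, adjusted p = 0.0823). Set, another histone chaperone and phosphatase 2A inhibitor, had the tightest groups. It was at 113, 101, 111, 108 and 98.2 CPM with GFP LNA and at 198, 187, 192, 204 and 142 CPM with SNORA73 LNA (0.79 ± 0.13 (SE), adjusted p = 0.0649). Ptma, which encodes prothymosin alpha, an acidic partner of histone H1, was at 387 to 552 CPM and 560 to 1201 CPM (1.0, adjusted p = 0.0823). None of these 4 overlapped between groups, which was a condition of the ranking that named them and is no added support. In total RNA their log2 fold changes were 0.41, 0.30, 0.12 and 0.28. Genes of this kind have near-identical pseudogenes, and the sharing of reads among copies makes their counts less certain.

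**Figure D1:**
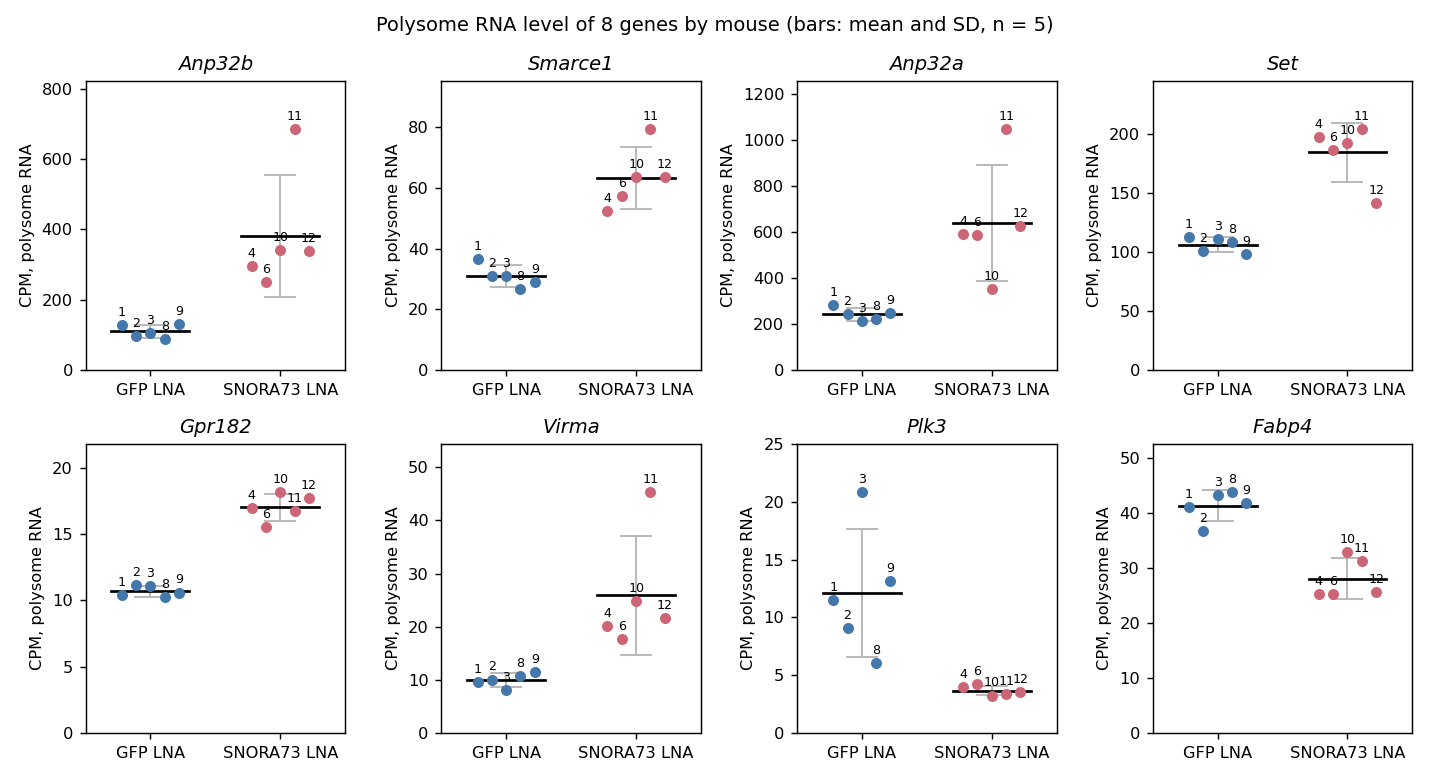
Polysome RNA level in CPM (linear axis from 0) of 8 genes in each mouse, GFP LNA at left and SNORA73 LNA at right, with mouse numbers, the group mean (black line) and SD (grey bar, n = 5). The groups do not overlap in any panel, and for all but Anp32b and Smarce1 this was a condition of the ranking that named them. Mouse 11 is highest for Anp32b (685 CPM), Smarce1, Anp32a, Set and Virma, whereas Gpr182 is tight in both groups.

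The promoters of the 3 Anp32 genes are shown because Anp32b rose and its 2 paralogues were close to the threshold. Each window is RefSeq sequence on GRCm38.p6, on the plus strand, written 5′ to 3′. For Anp32a and Anp32b it runs from 250 bases before to 50 bases after the gene start. The Anp32e window has the same length but lies slightly further downstream relative to its gene start (chr3:95929245). Capitals mark CCAAT, the box bound by NF-Y, and GGGCGG, the GC box bound by Sp1, on either strand (ATTGG and CCGCCC), and neighbouring GC boxes may overlap. Smarce1 was not among the windows. Anp32a (chr9:62341093-62341392) holds 3 CCAAT and 1 GGGCGG, Anp32b (chr4:46450676-46450975) holds 1 and 3, and Anp32e (chr3:95929007-95929306) holds 4 and 0. Of all 32851 windows of the same length, 37.4% hold at least 1 CCAAT and 35.7% at least 1 GGGCGG, so each of these letters is common in promoters.
Anp32a: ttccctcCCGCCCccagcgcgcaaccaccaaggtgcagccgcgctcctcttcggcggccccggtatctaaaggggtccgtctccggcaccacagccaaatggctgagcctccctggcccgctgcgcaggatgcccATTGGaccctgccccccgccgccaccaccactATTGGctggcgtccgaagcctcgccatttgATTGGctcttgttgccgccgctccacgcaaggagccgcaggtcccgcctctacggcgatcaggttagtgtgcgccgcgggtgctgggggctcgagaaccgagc
Anp32b: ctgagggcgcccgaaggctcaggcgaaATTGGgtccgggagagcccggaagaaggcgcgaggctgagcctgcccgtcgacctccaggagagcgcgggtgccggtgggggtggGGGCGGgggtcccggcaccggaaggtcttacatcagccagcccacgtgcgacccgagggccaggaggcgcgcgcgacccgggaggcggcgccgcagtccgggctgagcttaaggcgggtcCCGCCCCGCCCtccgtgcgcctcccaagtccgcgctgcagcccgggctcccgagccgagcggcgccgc
Anp32e: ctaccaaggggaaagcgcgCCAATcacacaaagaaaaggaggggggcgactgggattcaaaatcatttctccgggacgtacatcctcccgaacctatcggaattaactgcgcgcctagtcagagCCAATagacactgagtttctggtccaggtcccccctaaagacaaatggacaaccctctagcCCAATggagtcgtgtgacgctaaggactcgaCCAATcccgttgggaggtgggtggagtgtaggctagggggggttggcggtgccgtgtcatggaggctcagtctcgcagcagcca

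Other genes close to the threshold had varied roles, and the values that follow are for genes whose groups did not overlap. Strbp, a double-stranded RNA-binding protein, was at 17.6 ± 1.52 and 31.2 ± 5.76 CPM (SD, n = 5; log2 fold change 0.82, edgeR adjusted p = 0.0649). Cwc27, a spliceosome-associated cyclophilin, was at 4.34 ± 1.13 and 11.1 ± 3.05 CPM (1.35, adjusted p = 0.0823). Tm2d3 (0.80) and Ppp1r11, an inhibitor of phosphatase 1 (0.68), had an adjusted p of 0.0823 each. On the lower side stood Plk3, a stress-responsive kinase of the polo family. It was at 11.5, 9.05, 20.9, 6.08 and 13.2 CPM with GFP LNA and at 3.94, 4.21, 3.24, 3.39 and 3.52 CPM with SNORA73 LNA (−1.73 ± 0.28 (SE), adjusted p = 0.0649). Its GFP LNA mice varied widely while the SNORA73 LNA mice were close together.

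On the lower side, the genes named here were those with the smallest p among genes whose groups did not overlap. Fabp4, a fatty acid-binding protein of adipocytes, endothelium and macrophages, was at 41.3 ± 2.79 and 28.0 ± 3.73 CPM (SD, n = 5; log2 fold change −0.56, edgeR adjusted p = 0.099). Ly6a, also called Sca-1, was at 17.3 ± 3.73 and 9.18 ± 2.23 CPM (−0.92, adjusted p = 0.104). Pparg, the nuclear receptor of fat storage, was at 4.60 ± 1.10 and 2.36 ± 0.531 CPM (−0.96, adjusted p = 0.118). Usp19, a deubiquitinase of the endoplasmic reticulum membrane (−0.51), Optn, an autophagy receptor (−0.52), Csrp3 (−0.56), Frg2f1 (−1.14) and Nbdy, which encodes a microprotein of the mRNA decapping complex (−1.08), had adjusted p-values between 0.0823 and 0.126. Dyx1c1 was under 1 CPM in every library.

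Chromatin remodellers and histone modifiers had the most members higher by number, although 4 smaller lists had a larger share. Of 65 members tested of 66 listed, 23 were higher (35.4%, against 8.12% of all genes) and 0 lower by unadjusted p under 0.05, and 57 had a log2 fold change above 0. Smarce1 was the one member past the edgeR threshold, and DESeq2 called 7 of 64 higher (against 1.85% of all genes given an adjusted p) and 0 lower. The median log2 fold change was 0.41, and it was 0.24 under library totals and 0.13 in total RNA. Kmt2e, a reader of methylated histone H3, was at 37.9, 36.7, 25.9, 28.5 and 37.3 CPM with GFP LNA and at 63.0, 48.2, 45.2, 101 and 53.6 CPM with SNORA73 LNA (0.91, edgeR adjusted p = 0.126). Baz2b, a bromodomain protein, was at 14.5 to 16.5 CPM and 19.2 to 41.9 CPM (0.83, adjusted p = 0.101). Mouse 11 was the highest SNORA73 LNA mouse for both. The summed level of the list was 1755 to 2242 CPM with GFP LNA and 2507, 2067, 2681, 4920 and 2599 CPM in SNORA73 LNA mice 4, 6, 10, 11 and 12, so that mouse 6 lay within the GFP LNA range. Without mouse 11 the median was 0.18. The share of Malat1 moved with this list in the same mouse, and its part in the result was not tested.

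**Figure D2:**
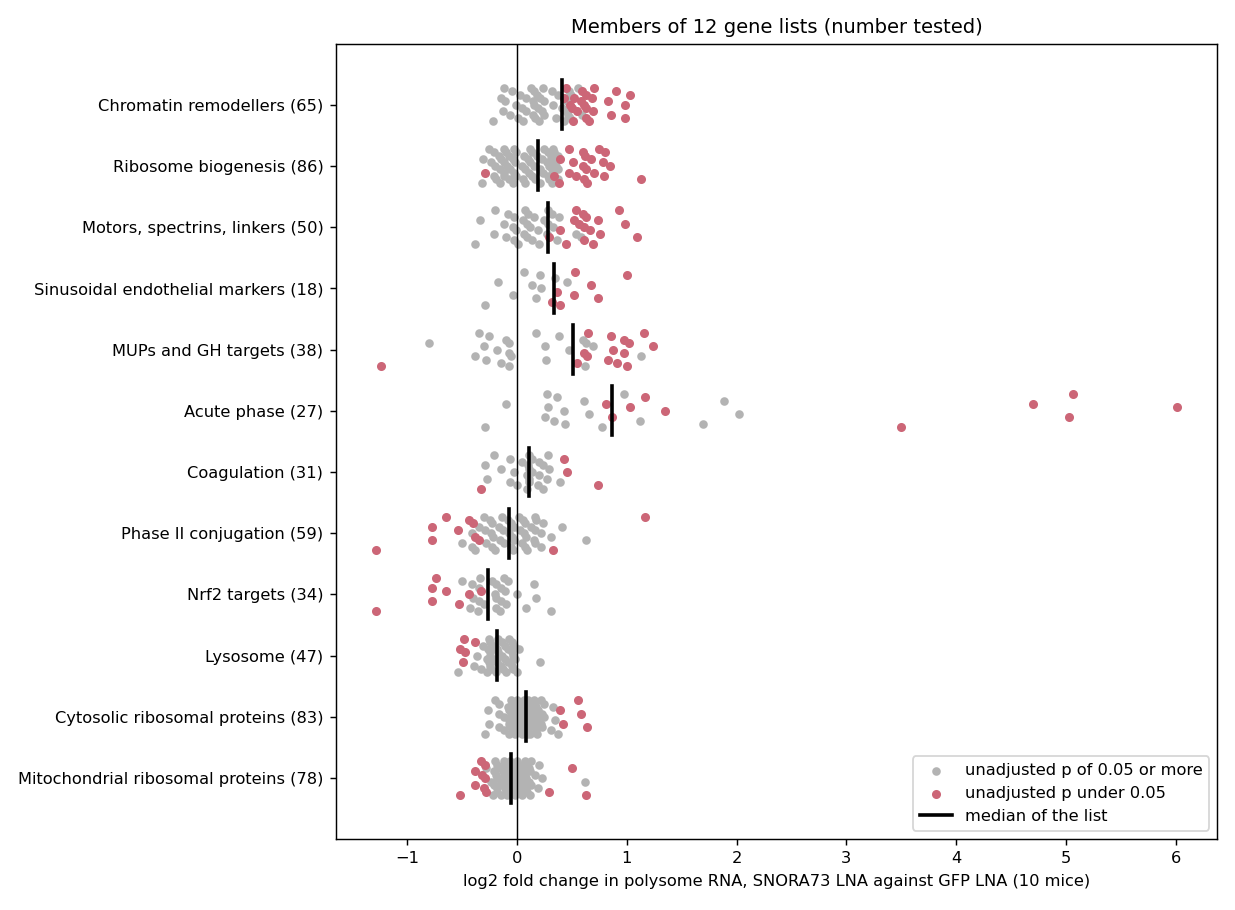
Log2 fold change in polysome RNA (SNORA73 LNA against GFP LNA, 10 mice, edgeR with TMM) of every tested member of 12 gene lists, red at an unadjusted p under 0.05, with the list median as a black bar. Chromatin remodellers (median 0.41) and sinusoidal endothelial markers (0.33) lie mostly above 0, Nrf2 targets (−0.27) and lysosomal genes (−0.18) mostly below, and coagulation and cytosolic ribosomal proteins lie near 0, and the sign of their medians turns under library totals as the median of all genes moves from −0.01 to −0.17.

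Ribosome biogenesis factors, which cut, modify and fold pre-rRNA in the nucleolus, showed a smaller shift. Of 86 tested, 21 were higher (24.4%, against 8.12% of all genes) and 1 lower by unadjusted p under 0.05. None passed the edgeR threshold in either direction. DESeq2 called 6 of 85 higher (against 1.85% of all genes given an adjusted p) and 0 lower. The median log2 fold change was 0.20, 0.03 under library totals and 0.14 in total RNA. Ncl, the nucleolar protein nucleolin, was at 264, 209, 200, 223 and 258 CPM with GFP LNA and at 444, 334, 394, 964 and 388 CPM with SNORA73 LNA (1.13 ± 0.26 (SE), edgeR adjusted p = 0.113). Its groups did not overlap. Ddx10, an RNA helicase of the small subunit processome, was at 17.5 ± 2.50 and 30.4 ± 9.14 CPM (SD, n = 5; 0.79, adjusted p = 0.113), and Utp11, of the same assembly, at 16.1 ± 2.76 and 24.4 ± 4.01 CPM (0.60, adjusted p = 0.146). The summed level was 2178 to 2511 CPM with GFP LNA and 2486 to 4176 CPM with SNORA73 LNA, with mouse 11 the highest. Without mouse 11 the median was 0.11. Host genes of other snoRNAs did not stand out, since 0 of 17 tested passed the edgeR threshold or an unadjusted p under 0.05, and 0 of the 14 given an adjusted p by DESeq2 passed its threshold (median −0.07). Gas5, such a host, was at 38.8 ± 7.14 and 46.2 ± 7.45 CPM (0.25, unadjusted p = 0.127).

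Genes of m6A methylation and RNA decay had 7 of 47 members higher (14.9%, against 8.12% of all genes) and 0 lower by unadjusted p under 0.05. No member passed the edgeR threshold. DESeq2 called 4 of 46 higher (against 1.85% of all genes given an adjusted p) and 0 lower. Their median log2 fold change was 0.10 and was −0.07 under library totals, which is 0.11 and 0.10 above the median of all genes. Virma, the scaffold of the m6A methyltransferase complex, was at 9.54, 10.1, 7.99, 10.6 and 11.4 CPM with GFP LNA and at 20.2, 17.7, 24.7, 45.4 and 21.6 CPM with SNORA73 LNA (1.39 ± 0.23 (SE), edgeR adjusted p = 0.0649). The groups did not overlap, a condition of the ranking in which Virma was also named. Ythdc1, the nuclear reader of m6A, was at 45.6 to 66.2 CPM and 79.4 to 163 CPM (0.84, adjusted p = 0.139), and Upf3a, of nonsense-mediated decay, at 24.0 to 34.4 CPM and 37.5 to 95.5 CPM (0.90, adjusted p = 0.142). Mouse 11 was again the highest for all 3. Splicing factors had 9 of 55 higher (16.4%, against 8.12% of all genes) and 3 lower (5.45%, against 5.32%). Their median of 0.10 turned to −0.06 under library totals, and it was 0.11 above the median of all genes under both scalings. Hnrnpd (0.30) was higher, and Hnrnpf (−0.39) and Hnrnpk (−0.33) were lower, with edgeR adjusted p-values of 0.246 to 0.262.

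Of 14 nuclear long noncoding RNAs listed, 7 were tested and 4 of these were higher at an unadjusted p under 0.05 (57.1%, against 8.12% of all genes), with 0 lower. Over 8 mice 2 of 7 were higher (28.6%, against 9.04% of all genes) and 0 lower. Malat1 was at 116, 89.3, 90.6, 89.2 and 145 CPM with GFP LNA and at 434, 216, 257, 1403 and 279 CPM with SNORA73 LNA. All SNORA73 LNA mice were above all GFP LNA mice, by the most in mouse 11. The log2 fold change was 2.29 ± 0.46 (SE, edgeR adjusted p = 0.0857), 1.5 without mouse 11 and 0.62 in total RNA. Tug1 was at 108 ± 20.2 and 147 ± 18.2 CPM (SD, n = 5; 0.45, adjusted p = 0.246), and Kcnq1ot1 at 1.63 ± 0.261 and 2.59 ± 0.886 CPM (0.67, adjusted p = 0.308). Malat1 and Kcnq1ot1 are retained in the nucleus, whereas Tug1 is found in the cytoplasm too.

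The cytoskeleton was the other large group on the higher side. Of 50 motor proteins, spectrins and cytoskeletal linkers tested of 55 listed, 17 were higher (34.0%, against 8.12% of all genes) and 0 lower by unadjusted p under 0.05. The median was 0.28, 0.11 under library totals and 0.10 in total RNA. No member passed the edgeR threshold over 10 mice. DESeq2 called 1 of 50 higher (against 1.85% of all genes given an adjusted p) and 0 lower. Utrn, which links actin to the dystroglycan complex, was at 11.1, 5.82, 9.10, 10.6 and 16.1 CPM with GFP LNA and at 23.7, 15.5, 15.1, 42.6 and 16.1 CPM with SNORA73 LNA (1.10 ± 0.32 (SE), edgeR adjusted p = 0.185). GFP LNA mouse 9 reached into the SNORA73 LNA range. Dync2h1, the dynein heavy chain of cilia, was at 0.928 ± 0.23 and 1.85 ± 0.383 CPM (SD, n = 5; 0.98, adjusted p = 0.185), and Kif3a, a kinesin of anterograde ciliary transport, at 8.53 ± 2.07 and 14.5 ± 5.26 CPM (0.76, adjusted p = 0.218). Without mouse 11 the median of the list was 0.14, and its summed level was 5351 CPM in mouse 11 against 3131 to 3655 CPM in the other SNORA73 LNA mice and 2571 to 3595 CPM with GFP LNA.

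Genes of the centrosome and primary cilium followed with 6 of 36 higher (16.7%, against 8.12% of all genes) and 0 lower by unadjusted p under 0.05. Their median was 0.17, but 0.01 under library totals and 0.05 without mouse 11. Cdk5rap2, which recruits the microtubule nucleator, was at 2.26 ± 0.505 and 4.21 ± 1.0 CPM (SD, n = 5; log2 fold change 0.89, edgeR adjusted p = 0.152), with groups that did not overlap. Ofd1, of the centriolar satellites, was at 2.76 ± 0.491 and 4.13 ± 1.04 CPM (0.59, adjusted p = 0.266). Over all genes, the median genomic span was 37074 bp for those higher at an unadjusted p under 0.05, 14944 bp for those lower and 21992 bp for all tested, among the 94.5% with a span. The part of gene span in the counts of these lists was not tested.

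**Figure D3:**
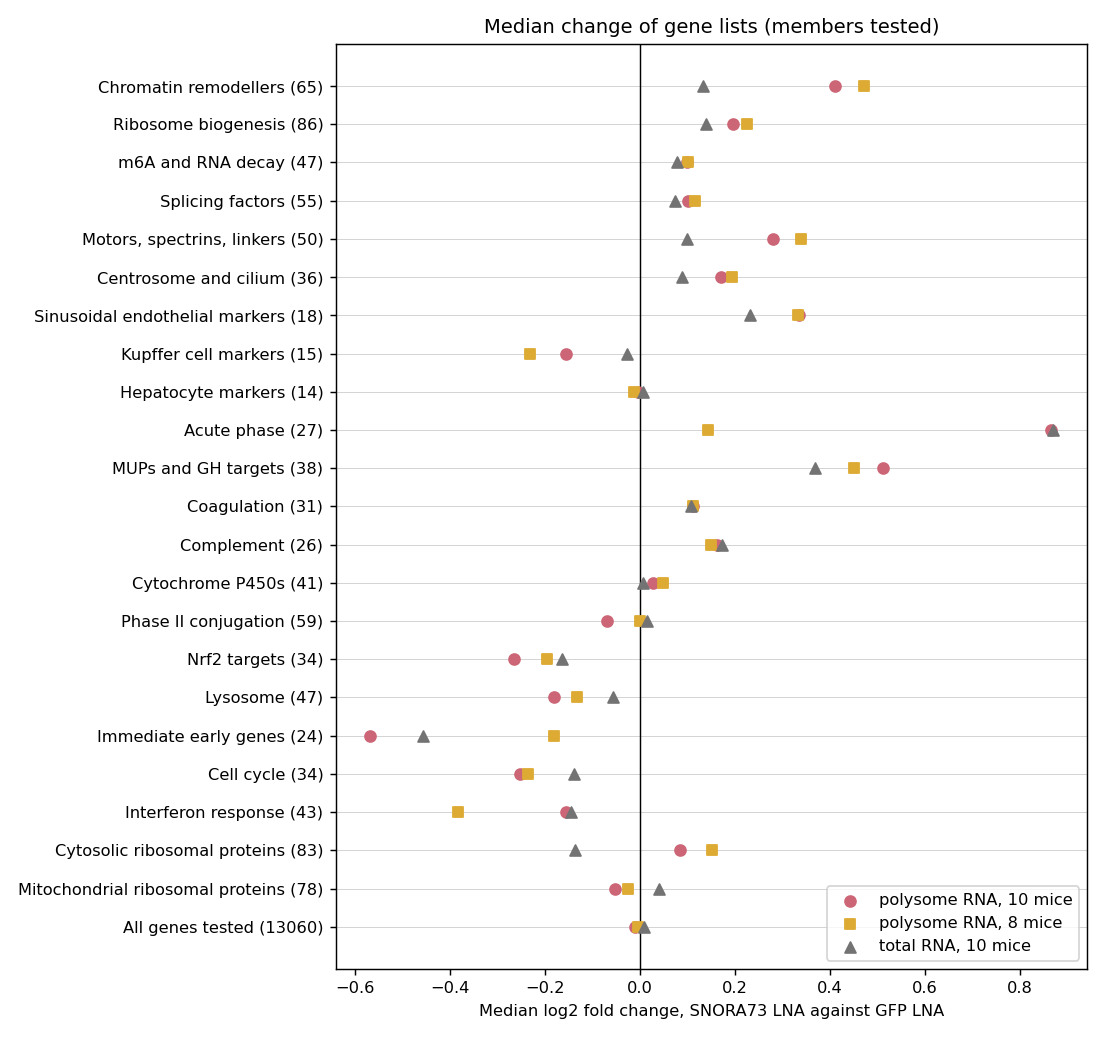
Median log2 fold change (SNORA73 LNA against GFP LNA, TMM) of 22 gene lists and of all genes tested, in polysome RNA over 10 mice (circles), polysome RNA over 8 mice (squares) and total RNA over 10 mice (triangles), with the number of members tested over 10 mice. Acute phase genes move from 0.86 to 0.14 without mice 9 and 10, sinusoidal endothelial markers stay at 0.33, and the medians of m6A, splicing, coagulation, complement, cytochrome P450 and cytosolic ribosomal protein genes turn sign under library totals, with the median of all genes moving from −0.01 to −0.17.

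Markers of liver sinusoidal endothelial cells, the fenestrated lining of the hepatic capillaries, were higher with less dependence on any one mouse. Of 18 markers, all tested, 8 were higher (44.4%, against 8.12% of all genes) and 0 lower by unadjusted p under 0.05, and 15 had a log2 fold change above 0. The groups did not overlap in 5 markers, all of them higher, against 2.11% of all genes. None passed the edgeR threshold over 10 mice. DESeq2 called 3 higher (against 1.85% of all genes given an adjusted p) and 0 lower. The median was 0.33 over 10 and over 8 mice, 0.18 under library totals, 0.23 in total RNA, and between 0.26 and 0.38 on leaving out any mouse. The summed level was 248, 266, 254, 263 and 270 CPM in GFP LNA mice 1, 2, 3, 8 and 9 and 314, 332, 297, 317 and 309 CPM in SNORA73 LNA mice 4, 6, 10, 11 and 12. The groups did not overlap, and mouse 11 did not stand out.

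Gpr182, an atypical chemokine receptor of this endothelium, was at 10.4, 11.1, 11.1, 10.2 and 10.6 CPM with GFP LNA and at 17.0, 15.5, 18.2, 16.7 and 17.7 CPM with SNORA73 LNA. Both groups were narrow and far apart (log2 fold change 0.67 ± 0.11 (SE), edgeR adjusted p = 0.0649). Stab2, the scavenger receptor that clears hyaluronan from blood, was at 6.04, 7.18, 5.72, 5.82 and 11.3 CPM and at 13.3, 16.1, 11.7, 15.8 and 15.5 CPM (1.01, adjusted p = 0.0857). Over 8 mice Stab2 passed the threshold (1.30, edgeR adjusted p = 0.0126). Flt1, a VEGF receptor, was at 9.82 ± 1.44 and 16.5 ± 2.92 CPM (SD, n = 5; 0.74, adjusted p = 0.0992). In total RNA these 3 were at 0.51, 1.06 and 0.34 on the same log2 scale. The marker Kdr (0.21), Lyve1 (0.35) and Stab1 (0.14) had unadjusted p-values of 0.184, 0.181 and 0.33, and Dnase1l3 was at −0.04. In bulk liver a change in the number of cells of a type and a change in RNA per cell cannot be told apart.

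Markers of other cells did not follow the endothelium. Hepatocyte markers had a median of 0.00 (14 tested, 2 higher and 0 lower by unadjusted p under 0.05), and their summed level was 83240 to 106000 CPM with GFP LNA and 79440 to 109100 CPM with SNORA73 LNA. Kupffer cell markers, all 15 tested, had a median of −0.16 with 0 higher and 1 lower, and summed to 314.5 to 512.5 CPM and 310.8 to 569.6 CPM. Their median was −0.34 without mouse 10 and −0.04 without mouse 9. Stellate cell and matrix markers, all 18 tested, had none past an unadjusted p of 0.05 or the edgeR threshold in either direction, none of the 17 given an adjusted p by DESeq2 past its threshold, and a median of −0.07. Few markers of cholangiocytes (6 of 12), B cells (4 of 10), T and NK cells (9 of 12) and neutrophils and monocytes (7 of 10) were tested, with medians of −0.13, −0.38, −0.40 and −0.33. Red cell and platelet markers had a median of −0.44 and summed to 769 to 1350 CPM with GFP LNA and 368 to 1249 CPM with SNORA73 LNA, and 0 of 7 tested had an unadjusted p under 0.05, an edgeR call or a DESeq2 call. Of 8 adipocyte markers, 4 were tested and 2 were lower. These were Fabp4, above, and Cidec at 0.75 ± 0.395 and 0.175 ± 0.12 CPM (SD, n = 5; −2.04, edgeR adjusted p = 0.184).

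**Figure D4:**
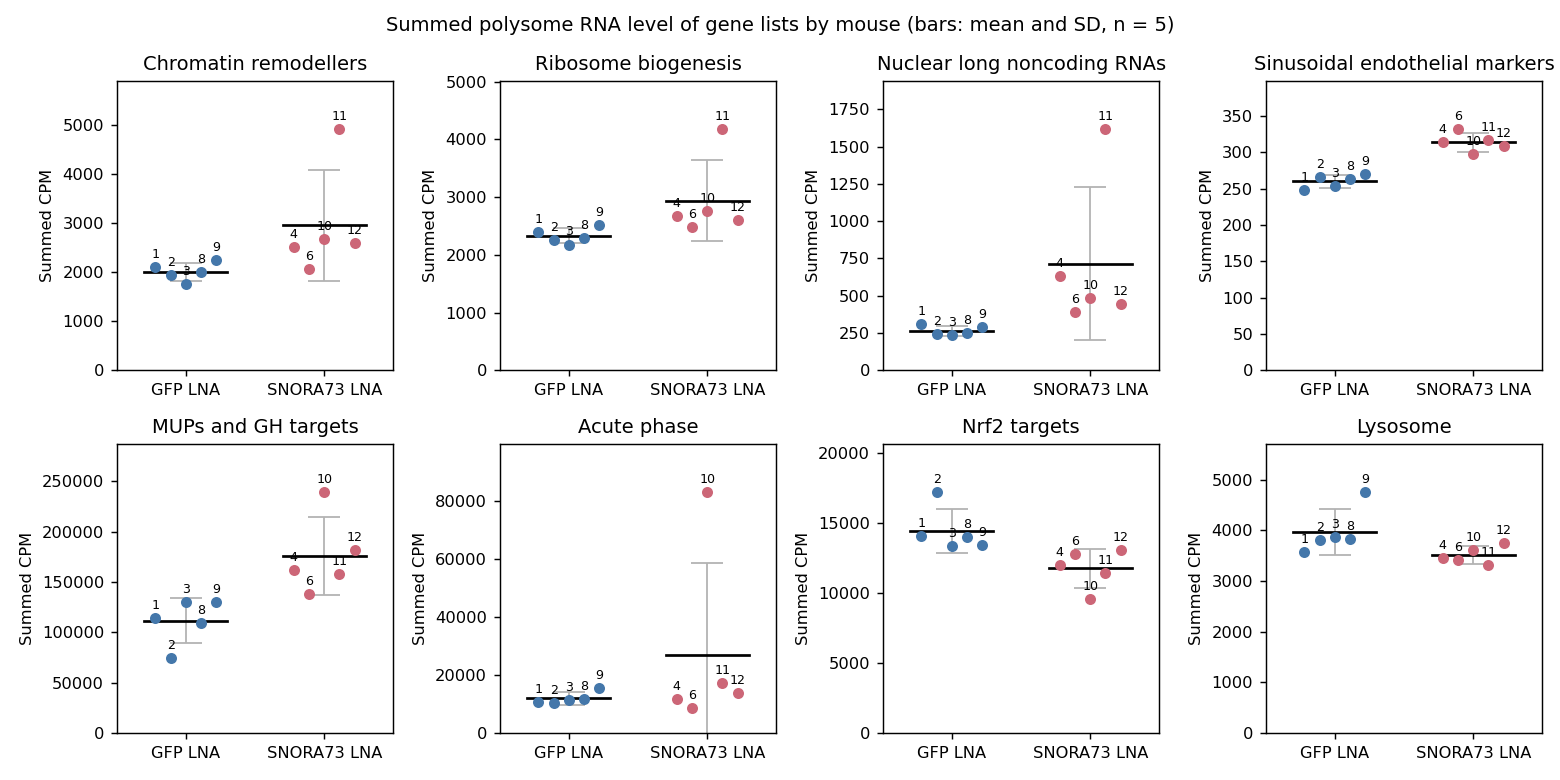
Summed polysome RNA level in CPM (linear axis from 0, a different scale in each panel) of 8 gene lists in each mouse, with mouse numbers, the group mean (black line) and SD (grey bar, n = 5; cut at 0 for the acute phase). Sinusoidal endothelial markers (248 to 270 against 297 to 332 CPM) and the list of major urinary proteins and growth hormone targets separate the groups. Mouse 11 is highest for chromatin, ribosome biogenesis and nuclear noncoding RNAs, and mouse 10 (83110 CPM) for the acute phase.

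Among secreted proteins, the list of major urinary proteins and growth hormone targets had summed levels that did not overlap between the groups. Major urinary proteins are pheromone carriers, induced in male liver by pulsed growth hormone. Of 45 major urinary protein genes and growth hormone targets listed, 38 were tested. By unadjusted p under 0.05, 14 were higher (36.8%, against 8.12% of all genes) and 1 lower. The median was 0.51, with 24 members above 0 and 14 below. No member passed the edgeR threshold. DESeq2 called 7 of 38 higher (against 1.85% of all genes given an adjusted p) and 0 lower. Mup7 was at 19818, 8788, 29916, 17895 and 20034 CPM with GFP LNA and at 39436, 32990, 56126, 36472 and 49399 CPM with SNORA73 LNA (log2 fold change 1.15 ± 0.27 (SE), edgeR adjusted p = 0.118). Every SNORA73 LNA mouse was above every GFP LNA mouse. Mup14 was at 3492 to 6924 CPM and 7567 to 16788 CPM (1.02, adjusted p = 0.136), and Mup12 at 302 to 676 CPM and 649 to 1225 CPM (0.98, adjusted p = 0.124). The summed level was 74640 to 130100 CPM with GFP LNA and 138500 to 239500 CPM with SNORA73 LNA. In total RNA the median was 0.37. The median stayed between 0.28 (without mouse 10) and 0.61 (without mouse 9), and it was 0.35 under library totals. Mup genes are near-identical copies, and the division of reads among them is uncertain.

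The acute phase list showed a high median whose size rested on a single mouse. Of 28 genes, 27 were tested, and 10 were higher (37.0%, against 8.12% of all genes) and 0 lower by unadjusted p under 0.05, with a median of 0.86. No member passed the edgeR threshold, 0 of the 13 given an adjusted p by DESeq2 passed its threshold, and the groups overlapped in all 27. Saa1, a serum amyloid A that rises in blood during inflammation, was at 48.2, 20.1, 61.5, 130 and 255 CPM with GFP LNA and at 241, 112, 16093, 656 and 118 CPM in SNORA73 LNA mice 4, 6, 10, 11 and 12 (log2 fold change 5.06 ± 1.42 (SE), edgeR adjusted p = 0.183). Saa2 and Saa3 were at 19544 and 1076 CPM in mouse 10 and at most 611 and 41.7 CPM in every other library. Lcn2, the iron-sequestering lipocalin, was at 820 CPM in mouse 10 and at most 15.1 CPM elsewhere. Without mouse 10 the median of the list was −0.04. Over 8 mice it was 0.14, with 7 of 27 higher (25.9%, against 9.04% of all genes) and 1 past the edgeR threshold with mice 9 and 10 both left out. Hamp, the iron hormone hepcidin, was also highest in mouse 10, at 1724 CPM against 240 to 879 CPM in the other SNORA73 LNA mice and 250 to 849 CPM with GFP LNA, although it was named after its values were seen.

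Coagulation genes were close to the background over 10 mice, and complement genes were above it on the higher side. Of 31 coagulation and fibrinolysis genes, 3 were higher (9.68%) and 1 lower by unadjusted p under 0.05, and 5 were higher (16.1%, against 9.04% of all genes) over 8 mice. The median of 0.11 turned to −0.05 under library totals. F2, prothrombin, stood out with 841, 854, 877, 806 and 899 CPM with GFP LNA and 1277, 1172, 1262, 1778 and 1654 CPM with SNORA73 LNA (log2 fold change 0.74 ± 0.14 (SE), edgeR adjusted p = 0.0823). Its groups were far apart, and its log2 fold change in total RNA was 0.46. F7 (0.42) and F9 (0.46), 2 vitamin K-dependent factors like prothrombin, had adjusted p-values of 0.185 and 0.183. The complement list of 26 had 5 higher members (19.2%) and 1 lower, 21 members had a log2 fold change above 0, and the median of 0.16 turned to −0.01 under library totals. C1s1, a protease of the classical pathway, was at 176 to 239 CPM and 257 to 289 CPM (0.47, adjusted p = 0.157). Cfb, of the alternative pathway, was at 499 ± 33.7 and 781 ± 207 CPM (SD, n = 5; 0.65, adjusted p = 0.175), and Masp1, of the lectin pathway, at 67.1 ± 8.99 and 88.5 ± 10.4 CPM (0.40, adjusted p = 0.233).

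Apolipoproteins and secreted hormones did not share a direction. Among 21 apolipoprotein and lipoprotein assembly genes 0 were higher and 2 lower by unadjusted p under 0.05. Those were Apoa4 (log2 fold change −0.70, edgeR adjusted p = 0.292) and Pltp (−0.68, adjusted p = 0.288). Of 32 hormones and carriers tested, 1 was higher (3.12%) and 5 lower (15.6%) over 10 mice, against 4 higher (12.5%) and 2 lower (6.25%) over 8. Igfbp1, a binding protein that insulin represses, was at 48.7, 35.1, 94.6, 109 and 73.2 CPM with GFP LNA and at 19.4, 70.4, 18.6, 37.1 and 15.4 CPM with SNORA73 LNA (−1.16, adjusted p = 0.269). Its groups overlapped, with SNORA73 LNA mice 6 and 11 within the GFP LNA range. Gdf15, a stress hormone, was at 50.9 CPM in GFP LNA mouse 9 and 1.70 to 4.0 CPM in every other library, so that its log2 fold change of −2.38 became −0.18 without mice 9 and 10. Metrnl was at 4.65 ± 0.823 and 3.11 ± 0.56 CPM (SD, n = 5; −0.58, adjusted p = 0.225).

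Targets of Nrf2, the regulator of glutathione synthesis and detoxification, were on the lower side. Of 34 tested of 35 listed, 0 were higher and 8 lower (23.5%, against 5.32% of all genes) by unadjusted p under 0.05, and 5 had a log2 fold change above 0. None passed the edgeR threshold, and DESeq2 called 0 higher and 2 lower. The median was −0.27, −0.43 under library totals, −0.16 in total RNA, and −0.32 to −0.20 on leaving out any mouse. Gsta1 was at 19.5, 31.7, 12.8, 32.5 and 23.2 CPM with GFP LNA and at 10.7, 17.3, 8.32, 8.47 and 4.03 CPM with SNORA73 LNA (log2 fold change −1.28 ± 0.33 (SE), edgeR adjusted p = 0.153). The groups overlapped in part. Gstm1 was at 1350 to 2560 CPM and 702 to 1361 CPM (−0.65, adjusted p = 0.221), and Gstm4 at 45.8 to 99.7 CPM and 28.2 to 48.4 CPM (−0.77, adjusted p = 0.185). All 3 encode glutathione S-transferases, a family of similar sequences in which reads may be shared. The summed level was 14050, 17190, 13350, 13980 and 13430 CPM with GFP LNA and 11980, 12770, 9560, 11410 and 13020 CPM with SNORA73 LNA, so that every SNORA73 LNA mouse lay below every GFP LNA mouse.

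The wider detoxification lists were mixed. Phase II conjugation enzymes, which include the same transferases, had 2 of 59 higher and 9 lower (15.3%) by unadjusted p under 0.05, with a median of −0.07. Over 8 mice 5 were higher and 10 lower (16.9%, against 4.95% of all genes), with a median of 0.00. Drug-metabolising cytochrome P450s had 4 of 41 higher (9.76%) and 5 lower (12.2%). Cyp2a12, a bile acid and steroid hydroxylase, was at 367, 354, 326, 267 and 270 CPM with GFP LNA and at 506, 468, 367, 766 and 598 CPM with SNORA73 LNA (log2 fold change 0.77, edgeR adjusted p = 0.137). Cyp2j5, an arachidonate epoxygenase, was at 238 to 321 CPM and 338 to 532 CPM (0.56, adjusted p = 0.156). Cyp2c40 was at 6.14 to 11.4 CPM and 3.34 to 7.11 CPM (−0.90, adjusted p = 0.185). Bile acid synthesis and transport genes had 2 of 39 higher and 3 lower, with Baat, which conjugates bile acids, at 182 ± 9.09 and 228 ± 17.9 CPM (SD, n = 5; 0.32, adjusted p = 0.246) and Abcb4, the phospholipid exporter, at 101.7 ± 12.4 and 81.6 ± 6.28 CPM (−0.32, adjusted p = 0.29).

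Lysosomal genes shared a small lower shift. Of 47 tested, 44 had a log2 fold change below 0, 0 were higher and 5 lower (10.6%) by unadjusted p under 0.05, and the median was −0.18 (−0.06 in total RNA). Over 8 mice 0 were higher and 3 lower (6.38%, against 4.95% of all genes), with a median of −0.13. No member passed the edgeR threshold, and DESeq2 called 0 higher and 1 lower. Ctsf, a cysteine protease, was at 9.02 to 11.2 CPM and 6.87 to 8.42 CPM (log2 fold change −0.49, edgeR adjusted p = 0.196). Hexa, which degrades gangliosides, was at 29.4, 35.8, 39.8, 34.5 and 63.6 CPM and at 30.3, 27.1, 27.2, 23.6 and 33.7 CPM (−0.52, adjusted p = 0.276). GFP LNA mouse 9 was the high value there, and without mouse 9 the median of the list was −0.13. The summed level of the list overlapped between groups, at 3579 to 4762 CPM with GFP LNA and 3314 to 3753 CPM with SNORA73 LNA. Autophagy genes had 3 of 44 higher (6.82%) and 1 lower over 10 mice, which is near the background. Over 10 mice 31 of them had a log2 fold change below 0, with a median of −0.11. Over 8 mice 4 were higher and 4 lower (9.09%, against 4.95% of all genes).

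Immediate early genes, p53 targets and genes of the integrated stress response had more members lower than higher over 10 mice. Immediate early genes had 0 of 24 tested higher and 4 lower (16.7%) by unadjusted p under 0.05. Their median of −0.57 became −0.18 over 8 mice and −0.20 without GFP LNA mouse 1. Nr4a1 was at 2.49 ± 2.17 and 0.703 ± 0.685 CPM (SD, n = 5; log2 fold change −1.81, edgeR adjusted p = 0.314), Jun at 29.4 ± 17.6 and 16.2 ± 3.20 CPM (−0.86, adjusted p = 0.314) and Btg1, an antiproliferative gene, at 85.3 ± 11.4 and 52.7 ± 20.1 CPM (−0.69, adjusted p = 0.225). Targets of p53 had 0 of 21 higher and 4 lower (19.0%), among them Plk3, with a median of −0.11. That median was −0.19 without mouse 10 and −0.04 without mouse 12. The integrated stress response had 1 of 26 higher and 4 lower (15.4%), with a median of −0.11, but 1 higher and 1 lower over 8 mice. Circadian clock genes had 1 of 26 higher and 0 lower over 10 mice but 6 higher (23.1%, against 9.04% of all genes) and 3 lower (11.5%, against 4.95%) over 8, and their median moved from 0.04 to 0.24 and was 0.23 without mouse 9, though −0.11 under library totals. Targets of glucocorticoids and fasting had 1 of 20 higher and 2 lower over 10 mice and 4 higher and 1 lower over 8.

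Protein folding in the endoplasmic reticulum was led by 3 abundant chaperones. Calr, calreticulin, was at 1260, 787, 1062, 1210 and 1286 CPM with GFP LNA and at 1709, 1303, 2125, 3705 and 1645 CPM with SNORA73 LNA (log2 fold change 0.90 ± 0.25 (SE), edgeR adjusted p = 0.184). The groups did not overlap, and mouse 11 was the highest. Canx, calnexin, was at 222 to 314 CPM and 309 to 827 CPM (0.83, adjusted p = 0.196), and Hsp90b1 at 818 to 1584 CPM and 1402 to 3630 CPM (0.82, adjusted p = 0.221). The list had 4 of 35 higher (11.4%) and 0 lower, and its median of 0.13 turned to −0.04 under library totals, to −0.08 over 8 mice and to −0.06 without mouse 10. Cytosolic chaperones had 0 of 39 higher and 5 lower (12.8%), with Cct8, of the chaperonin that folds actin and tubulin, at 204 ± 6.91 and 150 ± 20.9 CPM (SD, n = 5; −0.45, adjusted p = 0.174). Proteins of entry into the endoplasmic reticulum and N-glycosylation had 5 of 40 higher (12.5%) and 1 lower, with Magt1, an oligosaccharyltransferase subunit, at 54.4 ± 7.49 and 84.7 ± 13.8 CPM (0.64, adjusted p = 0.108).

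Ubiquitin ligases and the proteasome were near the background over 10 mice. Among 30 HECT and giant ligases 3 were higher (10%) and 0 lower, with 5 higher (16.7%, against 9.04% of all genes) over 8 mice, and their median of 0.12 turned to −0.03 under library totals. Herc2, a giant ligase of DNA repair, was at 7.75, 7.96, 6.27, 5.40 and 18.0 CPM with GFP LNA and at 29.0, 24.6, 18.7, 48.7 and 18.4 CPM with SNORA73 LNA (log2 fold change 1.62 ± 0.34 (SE), edgeR adjusted p = 0.099), and it rose over 8 mice (2.14, adjusted p = 0.00977). GFP LNA mouse 9 was close to the lowest SNORA73 LNA mice. Ube3a was at 70.2 ± 9.17 and 103 ± 18.3 CPM (SD, n = 5; 0.56, adjusted p = 0.157). The proteasome had 3 of 40 higher (7.50%) and 1 lower, with Psmd7 at 104 ± 7.09 and 160 ± 56.0 CPM (0.62, adjusted p = 0.215).

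The ribosome itself differed little. Of 83 cytosolic ribosomal protein genes tested of 91 listed, 5 were higher (6.02%, below the 8.12% of all genes) and 0 lower by unadjusted p under 0.05. None passed the edgeR threshold, and DESeq2 called 1 higher and 0 lower. The median was 0.08, with 57 members above 0, and turned to −0.08 under library totals. In total RNA it was −0.14, with 3 of 83 members above 0. Over 8 mice 9 were higher (10.8%, against 9.04% of all genes) and 0 lower in polysome RNA, with a median of 0.15. Rpl21 was at 409, 280, 254, 283 and 348 CPM with GFP LNA and at 395, 446, 453, 530 and 538 CPM with SNORA73 LNA (log2 fold change 0.58, edgeR adjusted p = 0.165, against 0.01 in total RNA). Rps18 (0.55 against −0.12) and Rpl10 (0.64 against 0.00) had adjusted p-values of 0.222 and 0.235 in polysome RNA. Mitochondrial ribosomal proteins, all 78 tested, had 3 higher (3.85%) and 9 lower (11.5%), with a median of −0.05. Mrps6 was at 20.5 to 27.4 CPM and 12.9 to 20.3 CPM (−0.52, adjusted p = 0.185) and Mrpl34 at 54.1 to 60.6 CPM and 43.3 to 49.5 CPM (−0.33, adjusted p = 0.216). Neither gene overlapped between groups.

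Other parts of the translation machinery were near the background over 10 mice. Translation factors had 6 of 69 higher (8.70%) and 5 lower (7.25%), with Eif1, which fixes start codon choice, at 1115 ± 79.8 and 859 ± 86.4 CPM (SD, n = 5; log2 fold change −0.38, edgeR adjusted p = 0.225). Eif2ak2, the kinase PKR, was at 16.8 ± 3.37 and 24.9 ± 5.01 CPM (0.57, adjusted p = 0.185), and Eif2ak3, the kinase PERK, at 5.41 ± 1.49 and 3.45 ± 0.752 CPM (−0.64, adjusted p = 0.239). Aminoacyl-tRNA synthetases had 4 of 40 higher (10%) and 2 lower (5.0%).

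Transcription factors and receptors of the hepatocyte had few members that differed. Liver transcription factors and nuclear receptors had 4 of 39 higher (10.3%) and 1 lower. Nr2f2, also called COUP-TFII, was at 35.2, 24.6, 23.6, 36.5 and 21.6 CPM with GFP LNA and at 53.3, 51.9, 52.2, 81.7 and 41.4 CPM with SNORA73 LNA (log2 fold change 0.99 ± 0.20 (SE), edgeR adjusted p = 0.0857). The groups did not overlap. Prox1, a homeobox factor of hepatocytes and lymphatic endothelium, was at 33.1 ± 8.22 and 61.9 ± 25.0 CPM (SD, n = 5; 0.91, adjusted p = 0.184), and Tcf7l2, of Wnt signalling, at 15.5 ± 3.99 and 27.2 ± 11.1 CPM (0.81, adjusted p = 0.217). Hormone and growth factor receptors had 5 of 48 higher (10.4%) and 0 lower, but 2 of 47 higher (4.26%, against 9.04% of all genes) and 0 lower over 8 mice. Il6ra, the interleukin-6 receptor, was at 43.8, 50.3, 42.6, 60.3 and 65.2 CPM with GFP LNA and at 74.5, 79.5, 83.9, 176 and 102.1 CPM with SNORA73 LNA (0.98 ± 0.23 (SE), adjusted p = 0.126). Igf1r (0.71) and Lrp6 (0.44) had adjusted p-values of 0.268 and 0.264.

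Interferon and cell division genes had negative medians, and the interferon counts depended on which mice were fitted. Of 43 type I interferon genes tested, 1 was higher (2.33%) and 3 lower (6.98%) by unadjusted p under 0.05. Over 8 mice 13 were lower (30.2%, against 4.95% of all genes). Their median was −0.16 over 10 mice and −0.38 over 8. Usp18, which damps interferon signalling, was at 8.61, 10.9, 17.6, 16.4 and 24.3 CPM with GFP LNA and at 9.22, 5.71, 11.6, 3.88 and 6.67 CPM with SNORA73 LNA (log2 fold change −1.07, edgeR adjusted p = 0.196). Interferon-inducible GTPases had 0 of 22 higher and 1 lower, Gbp11 (−1.51, adjusted p = 0.29), over 10 mice and 7 lower (31.8%) over 8, with medians of −0.17 and −0.42. Antigen presentation genes had 0 of 26 higher and 1 lower, H2-Eb1 (−0.99, adjusted p = 0.25). Chemokines and NF-kappaB targets had 0 of 32 higher and 2 lower, with a median of −0.02 that was 0.03 over 8 mice. Cell cycle and DNA replication genes had 1 of 34 higher (2.94%) and 4 lower (11.8%), with a median of −0.25. Mcm3, of the replicative helicase, was at 3.74 ± 0.747 and 2.27 ± 0.678 CPM (SD, n = 5; −0.72, adjusted p = 0.233), with groups that did not overlap.

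The remaining liver functions had few members past an unadjusted p under 0.05. The counts of higher and lower members at an unadjusted p under 0.05 were 2 and 5 of 62 for the urea cycle and amino acid breakdown, 1 and 2 of 39 for iron, haem and metal handling, and 1 and 1 of 26 for selenoproteins. They were 1 and 3 (12.5%) of 24 for pericentral genes and 1 and 1 of 24 for periportal genes, with medians of −0.03 and −0.02. Vesicle coats, tethers and Golgi genes had 3 and 2 of 50, and small-molecule and ion transporters 4 and 1 of 55. Peroxisome biogenesis genes had 1 and 3 (10.7%) of 28, with Pex11a, which divides peroxisomes, at 34.3 ± 4.98 and 48.7 ± 4.81 CPM (SD, n = 5; log2 fold change 0.51, edgeR adjusted p = 0.148) and non-overlapping groups. Mitochondrial import, dynamics and quality control had 3 and 5 (11.9%) of 42, with 30 members below 0. The lower shares of the urea cycle (8.06%), pericentral, peroxisome and mitochondrial lists were thus above the 5.32% of all genes. Over 8 mice those shares were 6.45%, 8.33%, 3.57% and 7.14%, against 4.95% of all genes, and peroxisome biogenesis had 3 members higher (10.7%). Rgn, a calcium-binding lactonase of pericentral hepatocytes, was at 1234, 1260, 1085, 1217 and 974 CPM with GFP LNA and at 795, 906, 700, 900 and 894 CPM with SNORA73 LNA (−0.46, adjusted p = 0.184).

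The study used 4 mice per group after leaving out a sample from each that did not cluster, and the table was fitted again leaving out mouse 9 (GFP LNA) and mouse 10 (SNORA73 LNA), taken from earlier work on these data as the ones left out. Leaving out mice that do not cluster with their group favours differences between groups. The study does not name the samples it left out. By mean correlation of log2 CPM, mouse 9 was closer to its own group than to the other (0.965 against 0.960). Mouse 10 was near both (0.955 with its own group against 0.956). Over these 8 mice, 27 of 12825 genes rose (0.211%) and 4 fell (0.0312%) by edgeR at an FDR under 0.05. All 31 had the same sign over 10 mice, 30 of them had an unadjusted p under 0.05 there, the groups did not overlap in 16, and 2 were past the threshold in both sets. Each set of mice shares 8 libraries with the other, so these counts are not independent. The calls over 8 mice became 0 higher and 0 lower without GFP LNA mouse 2 or mouse 3, and 4 and 0 without GFP LNA mouse 1. They became 48 and 9 without SNORA73 LNA mouse 6. Beyond genes already described, those that rose over 8 mice included Znhit6, which assembles box C/D snoRNPs, at 11, 8.78, 9.68, 11.3 and 14.7 CPM with GFP LNA and 21.2, 20.4, 15.6, 53.2 and 26.8 CPM with SNORA73 LNA (log2 fold change 1.58 over 8 mice, edgeR adjusted p = 0.0473, and 1.30 over 10, adjusted p = 0.106). For Znhit6, GFP LNA mouse 9 and SNORA73 LNA mouse 10 were the closest pair across the groups.

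Other genes past the threshold over 8 mice missed it over 10. Pard3b (2.70 over 8 mice and 1.94 over 10), Trio (2.24 and 1.44), Hdac8 (2.19 and 1.48) and Ptprg (1.85 and 1.29) rose over 8 mice with edgeR adjusted p-values of 0.0306, 0.0231, 0.0367 and 0.028. Over 10 mice these 4 had adjusted p-values between 0.162 and 0.216. Orm3, an orosomucoid, had 2.40 over 8 mice and 1.12 over 10, where its adjusted p was 0.587. Dnaic1, an axonemal dynein chain, was at 4.53, 3.77, 5.02, 3.44 and 0.664 CPM with GFP LNA and at 1.18, 0.968, 3.24, 0.601 and 1.03 CPM with SNORA73 LNA. In both left-out mice its level was on the side of the other group. Enho, whose annotated span overlaps that of Dnaic1 and which may share its reads, was at 53.5, 64.9, 61.8, 48.0 and 16.1 CPM and at 27.8, 13.4, 40.5, 29.1 and 21.1 CPM. Both fell over 8 mice (−2.15, adjusted p = 0.00977, and −1.32, adjusted p = 0.0402), as did Frg2f1 (−1.20) and Gm10319 (−0.94).

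Differences of the LNA effect between polysome and total RNA were tested by an RNA by LNA interaction term in a model of the 20 libraries. Without the mouse as a block, edgeR called 0 genes higher and 1 lower, and an unadjusted p under 0.05 was found for 281 and 120. A fit in which each mouse formed a block called 1 gene higher and 0 lower, and an unadjusted p under 0.05 was found for 692 and 416. The gene higher with the block was Anp32b (interaction 1.28 on the log2 scale, edgeR adjusted p = 0.0349, against 1.34 and 0.715 without the block). Smarce1 (0.72), Set (0.67) and Anp32a (0.93) had adjusted p-values of 0.24, 0.13 and 0.079 with the block. For the endothelial genes the interaction with the block was 0.41 for Flt1 (unadjusted p = 0.00362, adjusted p = 0.413), 0.16 for Gpr182 and −0.03 for Stab2 (adjusted p = 0.73 and 0.98). Those for Mup7 (0.03) and F2 (0.26) had adjusted p-values of 0.95 and 0.63. Genes higher in polysome RNA at an unadjusted p under 0.05 had a median log2 fold change of 0.24 in total RNA, and genes lower there had −0.19. The 2 RNAs come from the same livers, and these medians are a description.

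**Figure D5:**
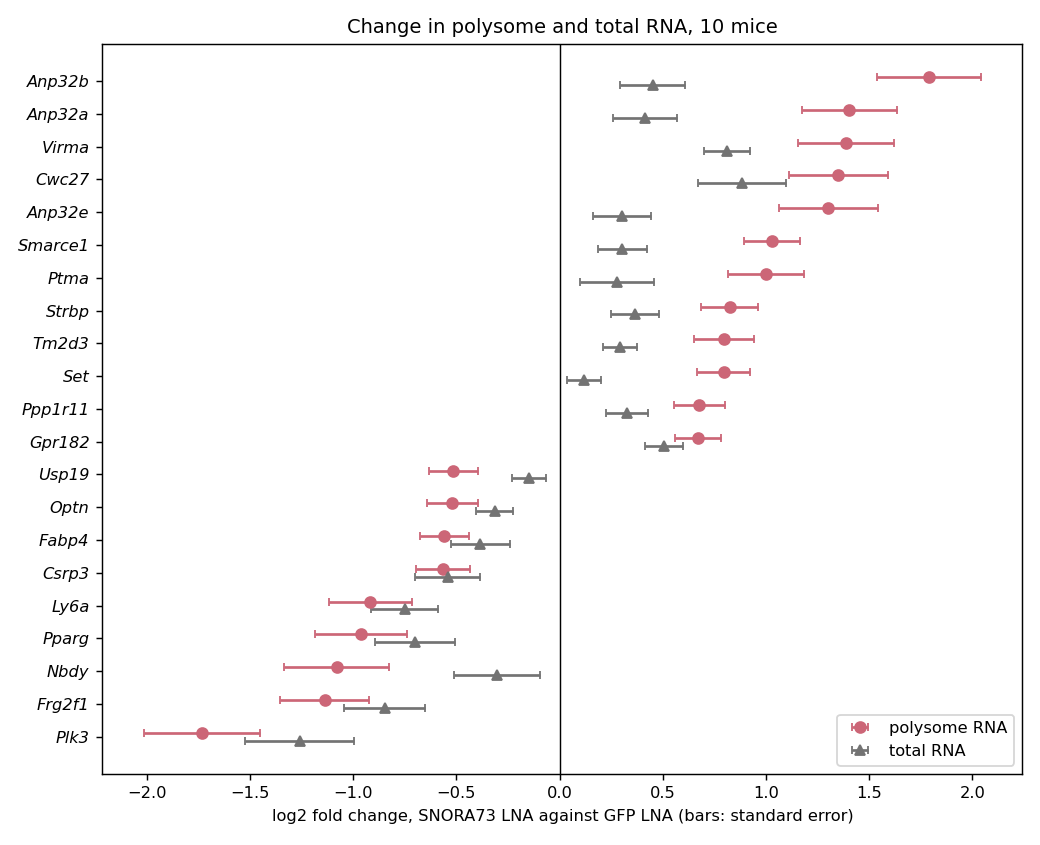
Log2 fold change (SNORA73 LNA against GFP LNA, 10 mice, edgeR with TMM) in polysome RNA (red circles) and total RNA (grey triangles) with standard errors, for the genes past the threshold or first in rank among those with groups that do not overlap. Anp32b is at 1.79 in polysome RNA and 0.45 in total RNA and Set at 0.79 and 0.12, whereas Csrp3 (−0.56 and −0.54) and Gpr182 (0.67 and 0.51) lie close in both; Dyx1c1 is left out because it was not tested in total RNA.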

How the data were processed

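Polysome RNA was collected by the authors from liver on sucrose gradients and treated with heparinase, and poly(A)-selected libraries were sequenced as paired, reverse-stranded reads. The deposited table holds estimated counts for 53028 Ensembl genes in 20 libraries, made by the authors with kallisto on GRCm38 and tximport. The submitters' processing notes also name fastp, Bowtie2 and SAMtools. Counts were rounded to whole numbers, and symbols were matched for 51903 identifiers. Genes that exceeded 0.5 CPM in 4 or more libraries of a fit were tested with edgeR 4.0.16 (quasi-likelihood, TMM, Benjamini-Hochberg) in R 4.3.3, polysome RNA apart from total RNA. As in the study, a gene was higher from a log2 fold change of 0.5 upward and lower from any negative one, each with an FDR under 0.05. DESeq2 1.42.0 and limma 3.58.1 were alternatives, together with other scalings and filters, a single fit of all libraries, 8 mice, and each mouse left out. A fit without SNORA73 LNA mice 10, 11 and 12 was added after seeing the data, as were leave-one-out medians of lists. Scripts were tested on simulated data.

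Named genes were up to 15 past the threshold in each direction over 10 mice and 10 over 8, the targeted locus, up to 3 members of each list with the smallest p, cell type markers where described, and, since fewer than 20 genes passed, up to 10 in each direction with the smallest p whose groups did not overlap in log2 CPM. The members, lists and tests were chosen with earlier results of these data known. Positions, gene spans and promoters are from RefSeq (GRCm38.p6).

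The polysome and total libraries with the same mouse number come from the same animal. After removal of group means, each polysome library correlated with its own total library at r = 0.14 to 0.719, all above 0.1. For mouse 6 (0.14) another mouse's total library was closer (0.262). Polysome depth was 14852951 to 33824659 counts, which leaves genes under 1 CPM with few counts. Estimated counts share reads among similar sequences, so gene families, pseudogenes and overlapping genes are uncertain. The authors' own comparisons were not used.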

Additional observations from a re-analysis of the deposited data

Results flagged for a closer look

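Values far from the rest of their group were found in 15 of the 66 groups examined, where chance gives about 1 in 20. In SNORA73 LNA mouse 11 the high values were Anp32b at 685 CPM, Virma at 45.4 CPM and Anp32e at 139 CPM, and the summed levels of ribosome biogenesis at 4176 CPM, chromatin remodellers and histone modifiers at 4920 CPM, m6A methylation and RNA decay at 1805 CPM, nuclear long noncoding RNAs at 1616 CPM and motor proteins, spectrins and cytoskeletal linkers at 5351 CPM. In SNORA73 LNA mouse 10 it was the acute phase sum, at 83110 CPM. SNORA73 LNA mouse 12 was low for Set, at 142 CPM, and SNORA73 LNA mouse 4 high for Nbdy, at 1.94 CPM. In the GFP LNA group, mouse 9 was high for Nbdy (4.36 CPM), for the acute phase sum (15620 CPM) and for the lysosome sum (4762 CPM), and mouse 2 was high for the Nrf2 target sum (17190 CPM).

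The change in polysome RNA differed from that in total RNA for 1 gene in each fit of all 20 libraries and, by edgeR, for 0 over the 16 libraries of 8 mice (291 higher and 118 lower by unadjusted p under 0.05). Without the replicate block it was the pseudogene Gm15387 (edgeR adjusted p = 0.00721), named for this result. In total RNA it had 0 counts in all 5 GFP LNA libraries and 50 to 278 counts in SNORA73 LNA libraries, whereas in polysome RNA it had 1067 to 1970 counts with GFP LNA and 843 to 3753 with SNORA73 LNA. In the fit with the replicate block it was Anp32b (adjusted p = 0.0349).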

How the results depend on the processing

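The count of genes called over 10 mice (2 higher, 0 lower) depended on the analysis. It was 27 higher and 4 lower over 8 mice, 105 and 7 with limma-voom and sample quality weights, 217 and 50 with DESeq2, 66 and 6 without a filter beyond 1 count, 29 and 2 with a CPM above 1 in every library, and 221 and 75 in a single fit of all 20 libraries. It was 0 higher and 0 lower under library totals, and 1 higher without SNORA73 LNA mice 10, 11 and 12. With limma-voom, DESeq2's size factors in edgeR or mitochondrially encoded genes left out it was again 2 higher and 0 lower. On leaving out 1 mouse it ranged from 0 to 15 higher and from 0 to 2 lower. At an unadjusted p under 0.05, the 1060 higher genes became 469 under library totals and 1597 without a filter, and the 695 lower genes became 1796, 1093 and, in the single fit, 1059. Leaving out 1 mouse gave 454 (without GFP LNA mouse 3) to 763 lower genes. Over 8 mice, leaving out 1 mouse gave 0 to 48 higher genes (27 with all) and 0 to 9 lower (4 with all).

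Under the replicate block by mouse, the interaction of RNA and LNA gave 1 gene higher (0 without it) and 0 lower (1 without it). Over the 16 libraries of 8 mice, an alternative to the fit without the block, it gave 0 higher and 0 lower. No value with the block is given for 8 mice. The cause of these differences was not tested. Of the medians of lists, 800 values under alternatives moved by less than the spread (SD) between mice and 68 moved by at least that spread. This count took no account of sign. No called result changed sign. Of 62 list medians, 17 changed sign under library totals (2 when measured from the median of all genes, which moved by −0.15), 9 over 8 mice, 1 under size factors and 14 without SNORA73 LNA mice 10, 11 and 12, the acute phase median (0.86 to −0.19) among the last. Across the fits that each left out 1 mouse, 24 of the 62 changed sign. Depth limited genes under 1 CPM.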
